A study of Mus musculus with 12 samples.

Results

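Cytochrome P450 (P450) genes were followed in BN1-Tie2-EGFP cells, a murine hepatoblastoma (HB) line. They were taken as the rows of the expression table whose gene symbol is Cyp followed by a family number, a subfamily letter and a member number, which gave 94 of the 45706 genes listed. Symbols of another form, such as Cyp51 and Cyp3a41a, were outside this definition. The BN1 line arose from a liver tumor of an FVB/N mouse driven by β-catenin carrying an in-frame deletion of 90 residues (B) and by the L30P mutant of NRF2 (N), and its genotype is labelled Cdkn2a KO. All 12 libraries share these alleles, and the pooled stable clones carry EGFP under the Tie2 promoter, which is normally active in endothelial cells. Each of 4 groups held 3 libraries. Unsorted cells were kept in normoxia (UN, 21% oxygen) or in hypoxia for 2 days (UH, 1% oxygen). The sample titles call all libraries EGFP+, the unsorted ones too, and groups were taken from the treatment label. Sorted cells were EGFP+ cells collected after such hypoxia, expanded for about 10 days and sampled in normoxia (SN) or after a return to 1% oxygen for 2 days (SH). Sorted and unsorted cells thus differ in EGFP selection, in earlier hypoxia and in time in culture, which cannot be told apart. The replicates are described as independent by the study, but all come from 1 line.

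P450s are haem-containing monooxygenases that use molecular oxygen and electrons from a reductase to oxidise small molecules. Families 1 to 3 are best known for oxidising drugs and other xenobiotics, family 4 and the Cyp2j genes for fatty acids and eicosanoids, family 26 for clearing retinoic acid, and several single genes for steps in cholesterol, bile acid, steroid hormone and vitamin D metabolism. Mature hepatocytes are the main site of xenobiotic P450s. The aryl hydrocarbon receptor (AhR), which induces family 1, and the hypoxia-inducible factors share the partner protein ARNT.

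Values are TPM, transcript abundances that are scaled for transcript length and then to the same total in each library, so that levels can be compared between genes. Read depth per library is unknown from TPM, and no counting error is given. In the unsorted normoxic group, library UN1 stood apart: its correlation with UN2 and UN3 was 0.978 and 0.977 across genes, against 0.990 between UN2 and UN3. Of the 21 P450 genes described individually, 7 were over 2-fold higher in UN1 than in both other UN libraries and 4 were over 2-fold lower. Differences from UN are therefore also given without UN1 where that changes the reading. The cells are labelled hepatoblastoma, and the defining hepatocyte genes were low: Alb did not exceed 4.23 TPM, Ttr 0.474 and Cps1 0.0934 in any library. The hepatoblast gene Dlk1 was at 13.5 to 83.8 TPM in unsorted cells and at most 1.61 in sorted ones, and Afp reached 9.80 in SN. Other genes of the same list were higher. Krt18 was at 63.5 to 157 TPM in all libraries. Krt8 was at 33.7 to 84.9 TPM in unsorted cells and 4.20 to 12.2 in sorted ones. The 13 hepatocyte and hepatoblast markers summed to 118 to 292 TPM in UN and 182 to 221 in UH. In sorted cells the sum was 115 to 165 TPM in SN and 97.4 to 177 in SH. Summed TPM of 9 fibroblast and stellate cell markers moved with the groups, at 1176 to 5160 in UN, of which 5160 was UN1, 4852 to 7134 in UH, 201 to 211 in SN and 56.5 to 77.8 in SH. Not every member followed the sum. Col1a1, Col1a2, Col3a1, Pdgfra and Acta2 were lower in every SN library than in every UN library. Pdgfrb had a mean of 44.7 TPM in UN and 43.8 in SN, but UN1 was at 74.6 and UN2 and UN3 at 31.1 and 28.4. Dcn in SN (116 to 126 TPM) lay within its UN range (81.3 to 349), of which 349 was UN1 and UN2 was at 86.2. Without UN1, every SN library was above the UN libraries for both genes, with Pdgfrb at 40.3 to 47.7 TPM in SN. Des had its highest mean in SH, at 8.89 TPM beside 1.41 in SN. Of these markers, Lum was the lowest, at 0.135 TPM or less. The 5 macrophage and leukocyte markers summed to 87.2 to 115 TPM in UN, 44.8 to 48.5 in UH, 303 to 344 in SN and 124 to 135 in SH, mostly from Cd14 and Cd68, and the defining gene Ptprc did not exceed 0.121. The 4 cholangiocyte markers summed to 60.1 to 123.3 TPM in UN and 450 to 532 in UH, mostly Krt19, and to 32.6 to 76.5 in SN and 50.5 to 54.4 in SH. The 7 endothelial markers summed to 0.488 to 0.680 TPM in UN, 0.325 to 0.869 in UH, 2.36 to 3.06 in SN and 4.77 to 5.32 in SH, with Tek, the gene whose promoter was used for sorting, the most abundant in sorted cells and Cdh5 and Emcn at 0.0991 or less. The part of these cell states in the P450 differences was not tested. In bulk RNA, fewer cells of a type and less RNA per cell cannot be told apart.

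Most P450 genes were silent or nearly so in these cells. Of the 94 genes, 8 were listed at 0 in every library, 30 reached a mean of 0.1 TPM over all libraries and were tested, and 21 reached a mean of 1 TPM in at least 1 group. By group, 15 reached 1 TPM in UN, 13 in UH, 14 in SN and 15 in SH. The share expressed differed by class. Of the 45 xenobiotic genes 5 reached 1 TPM in a group, whereas 9 of the 26 fatty acid and eicosanoid genes and 4 of the 6 cholesterol and bile acid genes did. In the retinoic acid class 1 of 3 genes did so, and among the 5 unclassified genes 2. The 6 steroid hormone genes and the 3 vitamin D genes all stayed under 1 TPM in every library.

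Expression was concentrated in few genes, and the leading gene changed between groups. In UN, Cyp1b1 alone held 46.1% of the summed P450 TPM. Cyp20a1, an orphan P450 of unknown substrate, led in UH with 33.4% and in SN with 28.1%. In SH the leading gene was Cyp26b1, which inactivates retinoic acid, with 21.1%. The plot of TPM per library shows these genes beside the lower ones.

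**Figure D1:**
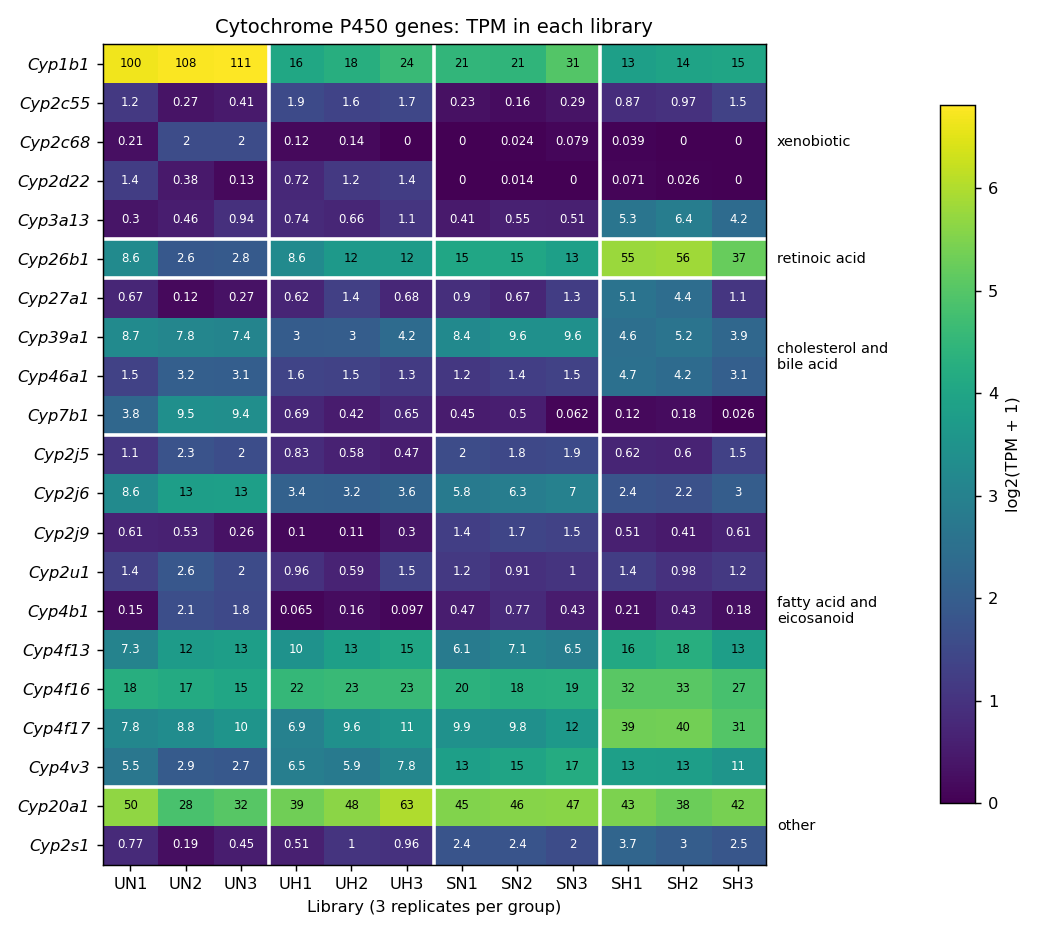
TPM of the 21 individually described P450 genes (rows, grouped by substrate class) in each of the 12 libraries (columns, 3 per group), with the value printed in each cell and colour giving log2(TPM + 1). Cyp1b1 is highest in the 3 UN libraries, Cyp26b1, Cyp4f17 and Cyp3a13 are highest in the 3 SH libraries, and Cyp20a1 is high throughout.

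Summed over all 94 genes, P450 TPM was 231 ± 3.66 (SD, n = 3) in UN, 151 ± 24.6 in UH, 164 ± 9.35 in SN and 233 ± 26.2 in SH. Hypoxic libraries lay below normoxic ones in unsorted cells and above them in sorted cells, with no overlap in either (exact two-sided permutation p = 0.1 for each, the smallest that 3 against 3 allows). The unsorted difference rested on Cyp1b1. Without it, in a sum added after seeing the data, TPM was 124 ± 5.19 in UN, 132 ± 20.5 in UH, 139.9 ± 4.23 in SN and 218 ± 26.9 in SH, so that UN and UH overlapped (exact permutation p = 0.8), SN lay above UN, and SH stayed above SN. The classes behind these totals differed. The xenobiotic sum was 111 ± 7.13 TPM in UN and 24 ± 3.79, 25.9 ± 5.70 and 23.3 ± 0.747 in UH, SN and SH. This too was Cyp1b1: the other 44 xenobiotic genes summed to 5.07 ± 1.11 TPM in UN, 4.97 ± 0.693 in UH, 1.55 ± 0.300 in SN and 8.99 ± 0.729 in SH, and UN and UH overlapped (exact permutation p = 0.9). The fatty acid and eicosanoid sum was 58.1 ± 6.25, 57.3 ± 6.03 and 62.6 ± 2.95 TPM in UN, UH and SN, and 102 ± 11.6 in SH. The retinoic acid sum was 4.81 ± 3.50, 11 ± 2.04, 14.8 ± 1.03 and 49.2 ± 10.9 TPM in the same order. UN and SH thus had similar totals split differently between the classes, as the stacked plot of class sums shows.

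**Figure D2:**
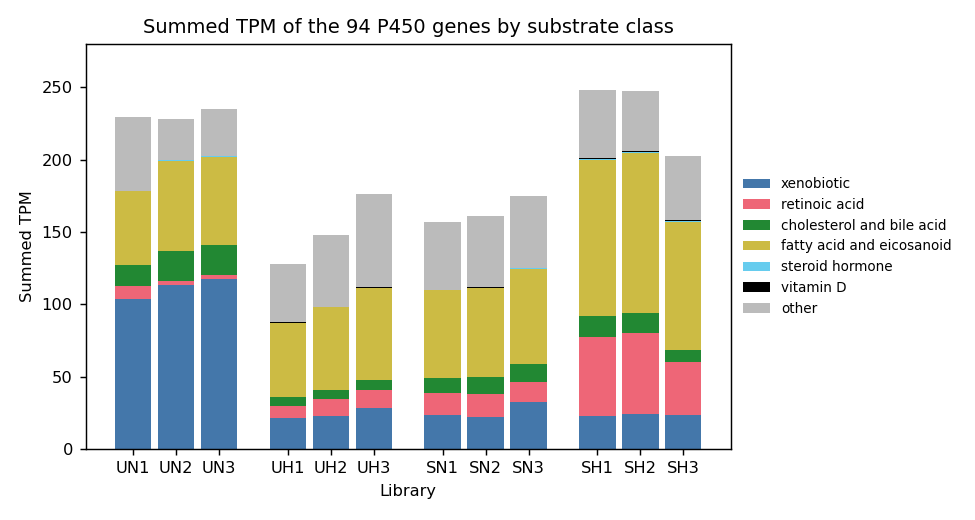
Summed TPM of the 94 P450 genes in each library (bars from 0), split by substrate class. The xenobiotic class is the largest in the UN bars (103.6 to 117.5 TPM), and the fatty acid and eicosanoid class is the largest in the SH bars (89.0 to 110 TPM), with retinoic acid at 36.6 to 56.2 TPM.

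One limma fit on log2(TPM + 1) covered 18909 genes. Calls required an adjusted p (Benjamini-Hochberg) under 0.05 together with an absolute log2 fold change above 1. Fold changes on this scale understate changes of genes near or under 1 TPM, so ratios of mean TPM are given where they differ much. Of the 30 P450 genes tested, 1 was called higher (3.33%) and 5 lower (16.7%) in UH than in UN, beside 5.46% and 11.8% of all genes tested. In SH against SN, 6 were called higher (20%) and 1 lower, beside 7.47% and 5% of all genes. In SN against UN, 3 were called in each direction (10%), beside 3.2% and 7.57%. In SH against UH, 6 were called higher and 1 lower, beside 7.65% and 5.35%. The shares of 1 gene are at or under the background, and the other shares, of 3 to 6 genes, are above it. A gene can pass the filter on mean TPM through 1 high group alone, so these counts describe the genes that passed and not the family. The median log2 fold change of the 30 genes was 0.0071, 0.041, -0.037 and 0.24 in the 4 comparisons, beside -0.19, 0.028, -0.056 and 0.17 for all genes. Median-of-ratios scaling brought the median of all genes to 0 in UH against UN and to 0.034 in SH against UH. UN is the control of UH and of SN, and UH and SN are each used again, so these comparisons are not independent of each other. In all, 14 P450 genes were called in at least 1 comparison. The hypoxia responses of unsorted and sorted cells shared 1 gene called higher, Cyp26b1, and 1 called lower, Cyp2j6. The matching shares over all genes were not computed, so neither count can be read as more or less than usual.

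Among the xenobiotic genes, Cyp1b1 (ENSMUSG00000024087) was by far the most abundant. It encodes an AhR-inducible enzyme that oxidises oestrogens and polycyclic hydrocarbons and is found largely outside hepatocytes. The gene lies on chromosome 17 from 79701537 to 79715061 on the minus strand (GRCm38, the mm10 assembly). Its level was 99.5, 108 and 111 TPM in UN, 15.5, 18.1 and 23.6 in UH, 21.4, 21 and 30.7 in SN, and 13.4, 14.4 and 15.0 in SH. Every UN library was above all 9 others by more than 3-fold. Cyp1b1 fell by 2.44 on the log2 scale in UH against UN (SE 0.165, limma adjusted p = 5.68e-07) and by 2.10 in SN against UN (SE 0.165, limma adjusted p = 2.7e-06). In sorted cells the difference under hypoxia was -0.71 (SE 0.165, limma adjusted p = 0.00466), under the fold threshold although the 2 groups did not overlap. The difference between SH and UH was -0.38 (95% interval -0.74 to -0.015).

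Cyp3a13, which belongs to the Cyp3a family that metabolises many drugs and steroids, showed the opposite distribution. It was at 0.301, 0.457 and 0.935 TPM in UN, 0.743, 0.660 and 1.07 in UH, 0.405, 0.555 and 0.506 in SN, and 5.29, 6.38 and 4.19 in SH. The SH libraries were above all others, and the other 3 groups lay near or under 1 TPM. Cyp3a13 rose in SH against SN by 2.07 (SE 0.180, limma adjusted p = 5.96e-06), a ratio of mean TPM of 10.8, and in SH against UH by 1.78 (SE 0.180, limma adjusted p = 1.45e-05), a ratio of 6.41. In unsorted cells the hypoxia difference was 0.24 (95% interval -0.16 to 0.63).

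The remaining xenobiotic genes over 1 TPM were low. Cyp2c55, a Cyp2c gene, was at 1.20, 0.271 and 0.412 TPM in UN, 1.88, 1.58 and 1.73 in UH, 0.227, 0.161 and 0.294 in SN, and 0.869, 0.973 and 1.54 in SH. It was higher in hypoxia without overlap in both backgrounds, but by 0.79 and 0.78 on the log2 scale, under the fold threshold, with ratios of mean TPM of 2.76 and 4.96. Without UN1 its difference between UH and UN was 1.03 and was called. Cyp2d22, a Cyp2d gene, was at 0.723, 1.20 and 1.36 TPM in UH and at most 0.0707 in the sorted libraries, and was called lower in SH than in UH (-1.01, SE 0.220, limma adjusted p = 0.00328). The call was lost without UH2, UH3 or SH3, at -0.97, -0.91 and -0.99. UN libraries ran from 0.132 to 1.36, with UN1 highest. Cyp2c68 was at 0.207, 1.97 and 1.98 TPM in UN and at most 0.136 in any other library, and was called lower in UH (-1.02, limma adjusted p = 0.00845) and in SN (-1.09, limma adjusted p = 0.00858). These Cyp2c68 values are uncertain, because 62.0% of its 31-base words also occur in other genes and its UN level rests on UN2 and UN3. Without either of these the UH difference was -0.81 and the SN difference -0.88 or -0.87, and both calls were lost, the UH call also without UH3 (-0.97) and after median-of-ratios scaling (-0.91). The classical AhR target Cyp1a1, which was looked up after the values were seen, was at 0.173 TPM or less in unsorted libraries and 0.218 to 0.659 in sorted ones. The hepatocyte P450s Cyp1a2, Cyp2e1 and Cyp3a11, looked up in the same way, did not exceed 0.453 TPM anywhere.

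In the retinoic acid class, Cyp26b1 (ENSMUSG00000063415, chromosome 6, 84571414 to 84593908, minus strand) carried nearly all the expression, and Cyp26a1 and Cyp26c1 stayed at or under 0.231 TPM. Its level was 8.61, 2.64 and 2.84 TPM in UN, 8.61, 11.6 and 12.4 in UH, 15.2, 15.3 and 13.3 in SN, and 54.6, 56.1 and 36.5 in SH. The groups followed the order UN, UH, SN and SH, and only UN1 and UH1, both at 8.61, touched. Cyp26b1 was called higher in all 4 comparisons. It rose by 1.20 in UH against UN (SE 0.320, limma adjusted p = 0.00892) and by 1.66 in SH against SN (SE 0.320, limma adjusted p = 0.00152). It also rose by 1.61 in SN against UN (limma adjusted p = 0.00239) and by 2.06 in SH against UH (limma adjusted p = 0.000342). The response to hypoxia did not differ detectably between sorted and unsorted cells (0.46, 95% interval -0.53 to 1.45). The UH against UN call depended on single libraries: without UN1 the difference was 1.65, and without UN2 or UN3 it was 0.95 or 0.99 and under the fold threshold.

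Of the cholesterol and bile acid genes, Cyp7a1 and Cyp8b1, which act in the classical bile acid pathway of hepatocytes, did not exceed 0.137 TPM. The 4 expressed genes act on oxysterols or on cholesterol side chains, and they went different ways. Cyp7b1, an oxysterol 7α-hydroxylase, was at 3.84, 9.52 and 9.38 TPM in UN, 0.690, 0.424 and 0.653 in UH, 0.445, 0.496 and 0.062 in SN, and 0.122, 0.178 and 0.0261 in SH. All UN libraries were above all others. Cyp7b1 fell by 2.35 in UH against UN (SE 0.264, limma adjusted p = 2.29e-05) and by 2.62 in SN against UN (SE 0.264, limma adjusted p = 1.99e-05), and UN means were 12.9-fold and 22.7-fold those of UH and SN.

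Cyp39a1, which hydroxylates 24-hydroxycholesterol, was lower in both hypoxic groups. It was at 8.66, 7.78 and 7.42 TPM in UN, 2.98, 3.02 and 4.17 in UH, 8.39, 9.61 and 9.65 in SN, and 4.64, 5.18 and 3.87 in SH. No hypoxic library reached a normoxic one. The difference was -1.04 in unsorted cells (SE 0.153, limma adjusted p = 0.000176), which was called, and -0.88 in sorted cells (SE 0.153, limma adjusted p = 0.000752), which was not. The unsorted call was lost without UN1, UH1 or UH2, where the difference was -0.98, -0.97 and -0.98, and after median-of-ratios scaling, where it was -0.74.

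Cyp46a1, the cholesterol 24-hydroxylase that makes the substrate of Cyp39a1, was at 1.52, 3.19 and 3.09 TPM in UN, 1.64, 1.52 and 1.29 in UH, 1.16, 1.41 and 1.52 in SN, and 4.70, 4.20 and 3.15 in SH. It rose by 1.08 in SH against SN (SE 0.205, limma adjusted p = 0.0014) and by 1.00 in SH against UH (SE 0.205, limma adjusted p = 0.00217). The first was 0.98 and not called without SH1. The second was not called without UH3, SH1 or SH2, at 0.95, 0.91 and 0.97, nor after median-of-ratios scaling, at 0.86. Cyp27a1, the sterol 27-hydroxylase of the alternative bile acid pathway, was at 5.05, 4.42 and 1.11 TPM in SH and at 0.123 to 1.42 in the other libraries. It was called higher in SH against SN (1.07, SE 0.346, limma adjusted p = 0.0273) and against UH (1.13, SE 0.346, limma adjusted p = 0.0209), but SH3 lay inside the range of both groups. Without SH1 these differences were 0.79 and 0.85, and without SH2 they were 0.87 and 0.93, and none of these was called. The first call was also lost without SN1 or SN2 (limma adjusted p = 0.0718 and 0.0943) and the second without UH1 or UH3 (limma adjusted p = 0.0691 and 0.0625).

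The fatty acid and eicosanoid class held the largest number of expressed genes. On chromosome 17 the ω-hydroxylase genes Cyp4f17 (32506050 to 32530143), Cyp4f16 (32536558 to 32551798) and Cyp4f13 (32924688 to 32947402) had their highest means in SH. Cyp4f17 was at 7.83, 8.85 and 10.5 TPM in UN, 6.89, 9.62 and 10.8 in UH, 9.91, 9.77 and 11.8 in SN, and 39, 40.5 and 30.6 in SH. The first 3 groups overlapped and SH stood above them. Cyp4f17 rose by 1.71 in SH against SN (SE 0.175, limma adjusted p = 1.92e-05) and by 1.91 in SH against UH (SE 0.175, limma adjusted p = 7.01e-06), and its difference in UH against UN was -0.0022 (95% interval -0.39 to 0.38).

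Cyp4f13 was at 7.25, 12.4 and 13 TPM in UN, 10.1, 13.3 and 15.2 in UH, 6.09, 7.15 and 6.54 in SN, and 16.3, 18.3 and 13 in SH. It rose in SH against SN by 1.14 (SE 0.216, limma adjusted p = 0.00135), while its SH and UH libraries overlapped. Cyp4f16 was the steadiest of the 3, at 15.3 to 18.3 TPM in UN, 22.3 to 23.5 in UH, 18.4 to 19.9 in SN and 27.4 to 32.6 in SH. Its hypoxic libraries were above its normoxic ones in both backgrounds, by 0.43 and 0.67 on the log2 scale, under the fold threshold. Of their 31-base words, 26.7% of those of Cyp4f16 and 11.7% of those of Cyp4f17 occur in other genes too. Reads may thus be shared with other genes, and which ones was not recorded. The nearby Cyp4f39, which was singled out after its values were seen, was at 0.217 to 1.02 TPM in SH and at most 0.0649 elsewhere.

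Of the Cyp2j genes, arachidonic acid epoxygenases clustered on chromosome 4, Cyp2j6, Cyp2j9 and Cyp2j5 (96516138 to 96664154) were tested, and the other 5 were at or near 0. Cyp2j6 was the most abundant, at 8.57, 13.1 and 13.4 TPM in UN, 3.36, 3.23 and 3.61 in UH, 5.82, 6.34 and 7.03 in SN, and 2.43, 2.24 and 3.00 in SH. Every hypoxic library was below every normoxic one. Cyp2j6 fell by 1.5 in UH against UN (SE 0.174, limma adjusted p = 2.96e-05) and by 1.06 in SH against SN (SE 0.174, limma adjusted p = 0.000523), and the second call was lost without SN3 or without SH2, at -0.998 and -0.994. Cyp2j5 did not exceed 2.34 TPM and differed by -0.77 in UH against UN and -0.64 in SH against SN. Cyp2j9, at 1.39 to 1.69 TPM in SN, differed by -0.32 and -0.75. Neither passed the fold threshold, although Cyp2j9 ratios of mean TPM were 0.367 and 0.333.

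Cyp4v3, a fatty acid ω-hydroxylase whose human counterpart is mutated in a corneal and retinal dystrophy, was higher in sorted than in unsorted cells. It was at 5.51, 2.88 and 2.70 TPM in UN, 6.54, 5.87 and 7.77 in UH, 13.5, 14.6 and 17.1 in SN, and 13.5, 13.1 and 10.8 in SH. Cyp4v3 rose by 1.82 in SN against UN (SE 0.210, limma adjusted p = 5.78e-05). Its exons overlap Gm45753 on the same strand, which makes part of its signal uncertain. The difference between SH and UH was 0.80 and that between UH and UN was 0.76, or 1.02 and called without UN1. Exons of Cyp2s1, Cyp2u1 and Cyp2c55 overlap genes on the opposite strand, and whether the counting used strand is not given. Cyp2u1, at 0.591 to 2.57 TPM, and Cyp4b1, at 2.11 TPM or less, were low. Cyp4b1 was at 0.150, 2.11 and 1.82 TPM in UN and 0.065 to 0.159 in UH, a difference of -0.97 that became -1.42 and was called without UN1.

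Among the unclassified genes, Cyp20a1 was at 28.1 to 50.0 TPM in UN, 39.3 to 63.3 in UH, 44.6 to 47.4 in SN and 38.2 to 42.9 in SH. Its difference in UH against UN was 0.47 (95% interval 0.026 to 0.91, limma adjusted p = 0.0785), or 0.71 without UN1 and 0.81 after median-of-ratios scaling, and the difference of its hypoxia responses was -0.64 (95% interval -1.26 to -0.015). Cyp2s1, an AhR-responsive gene of epithelia, was at 0.192 to 0.768 TPM in UN, 0.511 to 1.03 in UH, 2.01 to 2.41 in SN and 2.54 to 3.67 in SH. Sorted libraries were all above unsorted ones, and Cyp2s1 rose by 1.17 in SN against UN (SE 0.181, limma adjusted p = 0.000463) and by 1.15 in SH against UH (SE 0.181, limma adjusted p = 0.000379). In the steroid hormone class only Cyp11a1, the side-chain cleavage enzyme, and Cyp19a1, the aromatase, were tested. Cyp19a1 was at 0.236 to 0.619 TPM in SH and at most 0.0284 elsewhere, and Cyp11a1 did not exceed 0.6. Cyp27b1, which activates vitamin D, was the 1 vitamin D gene tested, at 0.107 to 0.716 TPM.

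**Figure D3:**
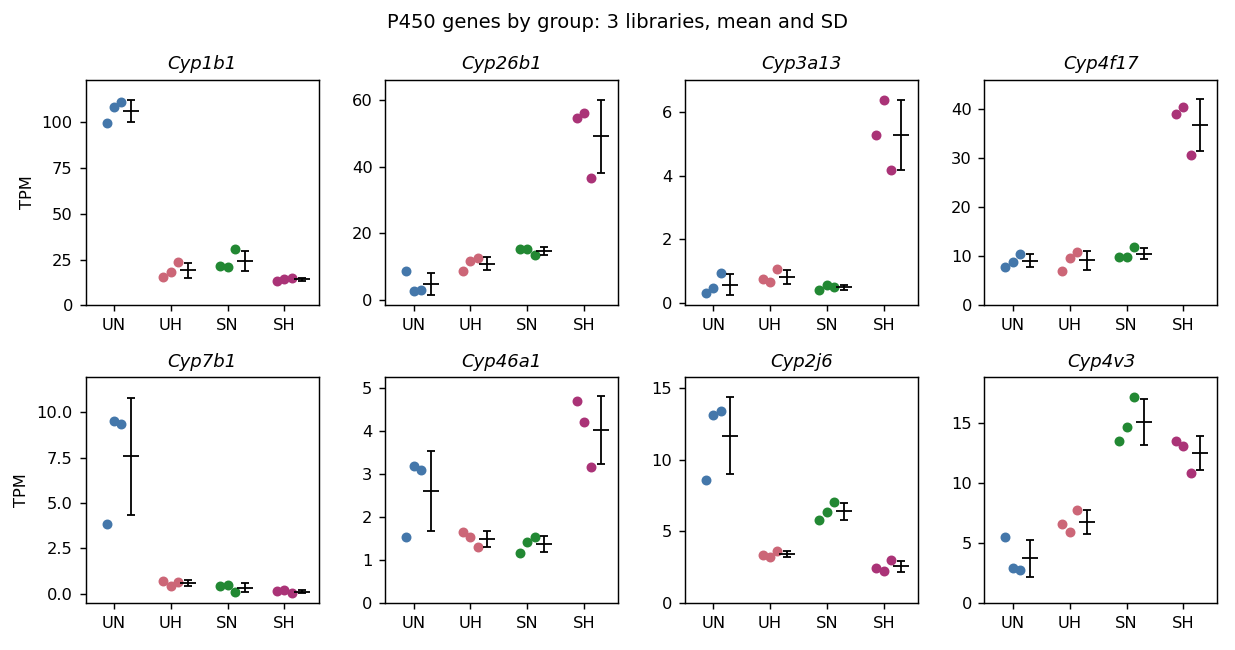
TPM (linear axes) of 8 P450 genes in the 4 groups, with 1 point per library and the mean and SD of 3 libraries in black. Cyp1b1 and Cyp7b1 are high only in UN among these groups, Cyp26b1, Cyp3a13, Cyp4f17 and Cyp46a1 peak in SH, Cyp2j6 is lower in both hypoxic groups, and Cyp4v3 is higher in both sorted groups.

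Whether hypoxia acted differently in sorted and unsorted cells was tested directly, as the SH minus SN response less the UH minus UN response. Of the 30 genes tested, 6 were called, 5 positive and 1 negative, beside 10.3% of all genes called in either direction. The median difference was 0.32 for the 30 genes and 0.25 for all genes, and median-of-ratios scaling brought the latter to 0.024. Cyp3a13 (1.83), Cyp4f17 (1.71) and Cyp46a1 (1.58) rose with hypoxia in sorted cells, with unsorted differences of 0.24, -0.0022 and -0.50. Cyp1b1 (1.72) and Cyp7b1 (2.10) fell with hypoxia in unsorted cells. Both were already lower in SN than in UN, before the return to 1% oxygen but after the earlier hypoxia. Cyp7b1 was at most 0.496 TPM in SN, where a fall is nearly hidden on the log2(TPM + 1) scale, so its value does not measure a weaker response, and its ratio of mean TPM was 0.0776 in UH against UN and 0.326 in SH against SN. Cyp4v3 (-1.01, limma adjusted p = 0.0312) had differences of 0.76 in unsorted and -0.25 in sorted cells, and this call was lost without any 1 of 8 libraries (adjusted p from 0.0523 to 0.0782). Without UN1, Cyp4f13, Cyp2c68 and Cyp4b1 were called too, the last 2 from under 1 TPM in SN.

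**Figure D4:**
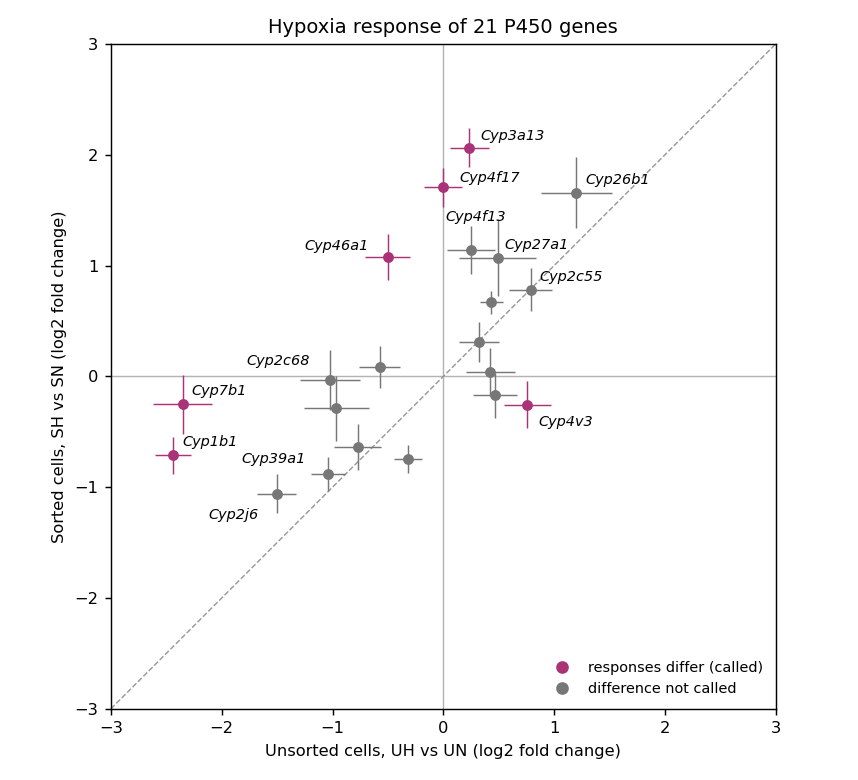
Log2 fold change with hypoxia in unsorted cells (x axis, UH against UN) and sorted cells (y axis, SH against SN) for the 21 individually described P450 genes, with bars of 1 SE and a dashed line of equal responses. The 6 genes called for a difference are in purple, with Cyp3a13 at 0.24 and 2.07 and Cyp1b1 at -2.44 and -0.71, while Cyp26b1 and Cyp2j6 lie nearer to the line.

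The sequences before the transcription start are shown for 4 genes on which these comparisons turn, the 2 called in both hypoxia responses, the most abundant xenobiotic gene and Cyp3a13, which peaked in SH. They come from RefSeq (GRCm38.p6), which held a promoter for 73 of the 94 genes and for 16 of the 21 described individually. Windows of 300 bases, of which the first 250 are upstream, were searched on both strands for ACGTG, the core of hypoxia response elements, and for GCGTG, the core bound by AhR. Matches on either strand are in capitals, so that GCGTG on the opposite strand reads as its reverse complement. RefSeq and GENCODE starts differ for some genes: 98 of the 250 bases of Cyp26b1 and 10 of those of Cyp2j6 fall inside the GENCODE gene and are not printed. The sequences run 5′ to 3′ on the gene's strand, which is minus in all 4, at chr6:84593909-84594060, chr4:96553662-96553901, chr17:79715062-79715311 and chr5:137921620-137921869.
Cyp26b1: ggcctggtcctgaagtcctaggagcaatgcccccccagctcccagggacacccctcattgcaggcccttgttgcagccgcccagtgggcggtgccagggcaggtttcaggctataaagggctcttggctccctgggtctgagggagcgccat
Cyp2j6: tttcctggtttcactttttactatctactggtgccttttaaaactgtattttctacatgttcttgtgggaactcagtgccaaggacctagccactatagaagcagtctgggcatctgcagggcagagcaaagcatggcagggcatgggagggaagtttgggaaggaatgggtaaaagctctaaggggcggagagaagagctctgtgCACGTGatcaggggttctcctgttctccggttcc
Cyp1b1: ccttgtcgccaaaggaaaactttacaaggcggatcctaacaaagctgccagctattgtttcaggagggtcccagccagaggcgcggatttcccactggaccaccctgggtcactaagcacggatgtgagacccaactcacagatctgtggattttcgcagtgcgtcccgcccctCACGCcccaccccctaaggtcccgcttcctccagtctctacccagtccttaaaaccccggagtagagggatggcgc
Cyp3a13: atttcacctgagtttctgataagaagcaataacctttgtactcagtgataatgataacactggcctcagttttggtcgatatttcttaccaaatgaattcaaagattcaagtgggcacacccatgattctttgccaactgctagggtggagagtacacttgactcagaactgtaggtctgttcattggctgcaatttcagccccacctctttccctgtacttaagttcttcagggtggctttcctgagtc
Cyp2j6 held ACGTG on both strands, as 1 palindrome starting 44 bases before the start, and Cyp1b1 held GCGTG on the strand opposite to the gene 76 bases before it. Cyp26b1 and Cyp3a13 held neither in this window. Of the 16 genes, 3 held ACGTG and 7 held GCGTG, beside 19.6% and 32.4% of all 32851 promoters. A match to 5 bases describes the letters only.

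The enzymes that supply P450s with electrons were expressed throughout. Por, the reductase of microsomal P450s, was at 124, 91.8 and 117 TPM in UN, 150, 172 and 187 in UH, 210, 225 and 320 in SN, and 299, 226 and 236 in SH. It rose in SN against UN by 1.16 (limma adjusted p = 0.000368), and no sorted library was as low as any unsorted one. Of the 7 electron donors, Pgrmc1 was called higher and Cyb5b lower in both hypoxia responses, and Cyb5a, cytochrome b5, fell in UH against UN by 1.45 (limma adjusted p = 1.03e-06) and was at 285 to 331 TPM in SH and 520 to 566 in SN. Among genes of haem synthesis and breakdown, Alad, which acts early in haem synthesis, was called lower in UH than in UN (-1.22, limma adjusted p = 2.45e-06). Hmox1, which degrades haem, was at 58.4 to 75.4 TPM in UN and 118 to 134 in UH, a difference of 0.86 under the fold threshold.

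Of 15 tested nuclear receptors and partners that regulate P450 genes, 6 were called lower in UH than in UN, beside 11.8% of all genes. They were Ahr, Rxra, Hnf4a, Nr5a2, Nr1h3 and Nr1h4. In SH against SN, Rara was called higher and Nr1h4, the bile acid receptor, lower. Ahr was at 20.3, 15.1 and 14.7 TPM in UN, 3.53, 6.75 and 9.65 in UH, 16.7, 12.6 and 22.5 in SN, and 9.13, 10.4 and 5.77 in SH. It fell by 1.28 in UH against UN (SE 0.31, limma adjusted p = 0.00519). Its difference was -0.95 in SH against SN (limma adjusted p = 0.029), under the fold threshold, and 0.025 in SN against UN. Rara, a retinoic acid receptor, rose in SH against SN by 1.83 (limma adjusted p = 3.97e-06). In SN against UN the Rara difference was -0.096 (limma adjusted p = 0.68). The part of receptor levels in the P450 differences was not tested. Hnf4a was at 1.70 to 4.98 TPM in UN and at most 0.429 elsewhere, and Vdr at 15.8 to 25.1 TPM in UN and 1.29 to 1.51 in SN. The xenobiotic receptor gene Nr1i2 was listed at 0 in every library but those of SH, where it did not exceed 0.125 TPM, and Nr0b2 was listed at 0 in all.

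The 4 other AhR-responsive genes did not move together. Tiparp rose in both hypoxia responses (by 1.83 and 1.16), whereas Aldh3a1 was called lower in both (-3.63 and -2.06). Aldh3a1 rose in sorted against unsorted cells, by 1.78 in normoxia and 3.35 in hypoxia. Ugt1a6a fell in UH against UN by 1.06, and Nqo1 did not exceed 2.04 TPM. Of the 3 P450 relatives outside the naming pattern, Cyp51, lanosterol demethylase of cholesterol synthesis, was at 40.6, 30.9 and 31.5 TPM in UN, 5.29, 5.14 and 5.51 in UH, 27.6, 26.1 and 35.5 in SN, and 6.13, 7.43 and 7.58 in SH. It fell with hypoxia by 2.47 in unsorted cells (limma adjusted p = 2.34e-07) and by 1.93 in sorted cells (limma adjusted p = 2.59e-06). Ptgis, prostacyclin synthase, was at 36.6, 5.40 and 3.95 TPM in UN, 16.6 to 21.5 in UH and at most 0.0805 in sorted cells.

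**Figure D5:**
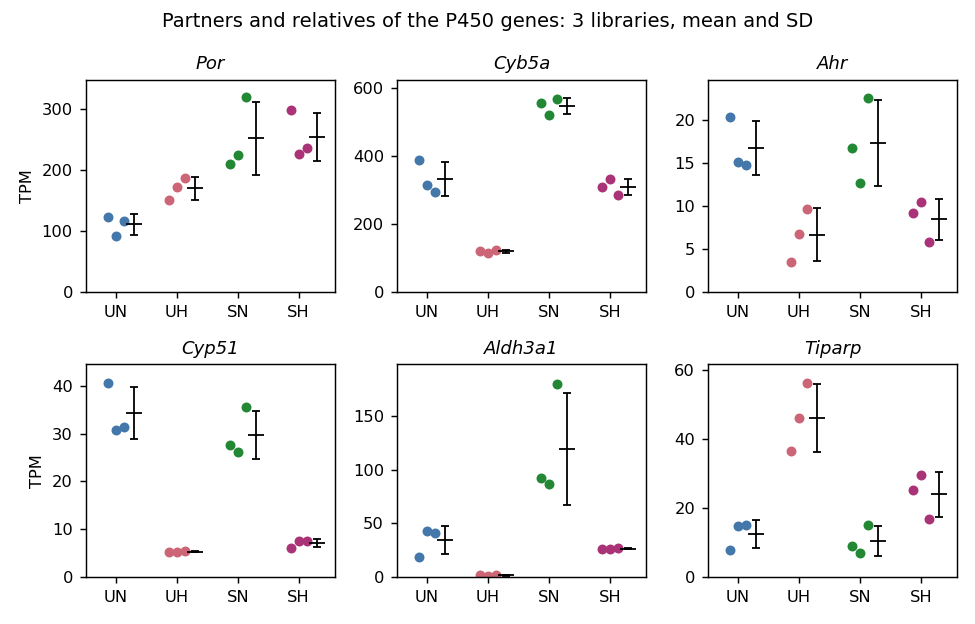
TPM (linear axes from 0) of 6 partners and relatives of the P450 genes in the 4 groups, with 1 point per library and the mean and SD of 3 libraries in black. Por is higher in sorted cells, Cyb5a, Ahr, Cyp51 and Aldh3a1 have lower means in hypoxia in both backgrounds, and Tiparp has higher ones.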

How the data were processed

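RNA was sequenced from 12 libraries (Illumina Stranded mRNA Prep, paired-end, AVITI). The authors processed the reads with nf-core/rnaseq 3.12.0 on mm10, per the submitters' processing notes, and deposited TPM per gene. The gene annotation is not given in the sources used here. TPM are length-scaled estimates that sum to the same total, so that a rise of abundant genes lowers others, and keep no read depth. Count tests were not possible.

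Genes with a mean of at least 0.1 TPM (18909) were tested on log2(TPM + 1) with limma 3.58.1 in R 4.3.3, with moderation, a trend and a mean per group. In simulated data for the 18909 genes, 200 genes with a mean of at least 1 TPM were changed 4-fold between UH and UN, and 92% were recovered. All simulated libraries had the same spread, with none apart like UN1. The 92% therefore does not carry over to comparisons with UN in these data. Nor does it apply to genes under 1 TPM, which were not changed in the simulation. Summed TPM were compared with exact two-sided permutation tests. P450 genes with a mean of at least 1 TPM in a group or called in a comparison were described individually, and of the partner lists those called plus Ahr, Por and Hmox1. P450 genes under 1 TPM were named after their values were seen. Genes and lists were chosen with earlier results of these data known. Symbols set the substrate classes. Coordinates are from GENCODE M21. Alternatives changed the pseudocount, filter, scaling, fit, replicate block and libraries.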

Additional observations from a re-analysis of the deposited data

Results flagged for a closer look

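A difference in the response to hypoxia between sorted and unsorted cells was called for 6 P450 genes, by the limma test of the difference itself (log2 scale, SH minus SN less UH minus UN). The differences were 1.72 for Cyp1b1 (adjusted p = 0.000561), 1.71 for Cyp4f17 (adjusted p = 0.000834), 1.58 for Cyp46a1 (adjusted p = 0.00328), 2.10 for Cyp7b1 (adjusted p = 0.00273), 1.83 for Cyp3a13 (adjusted p = 0.000669) and -1.01 for Cyp4v3 (adjusted p = 0.0312). For Cyp1b1 and Cyp7b1 the sorted normoxic libraries, at 21 to 30.7 and 0.062 to 0.496 TPM, already lay near the unsorted hypoxic ones, at 15.5 to 23.6 and 0.424 to 0.690 TPM. On log2(TPM + 1) the low Cyp7b1 level in SN leaves little room to fall, so its difference does not measure a weaker response, with ratios of mean TPM of 0.0776 in unsorted and 0.326 in sorted cells. The Cyp4v3 difference lost its call when any of 8 single libraries was left out, all but UN1, UH1, UH2 and SN1.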

How the results depend on the processing

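Of 32 calls of a P450 gene in a comparison, 21 stayed past both thresholds under every alternative run and 11 fell under a threshold in at least 1, and none reversed. With the replicate block all 32 calls held, with counts of 1 higher and 5 lower in UH against UN; the replicate numbers do not pair the samples (residual correlations from -0.116 to 0.141). With a pseudocount of 0.1, 2 genes were higher and 9 lower in UH against UN, 4 lower in SH against SN, 5 higher in SN against UN, and 11 higher and 2 lower in SH against UH. After median-of-ratios scaling, which moved the median of all genes in UH against UN from -0.19 to 0, 2 were higher and 3 lower there. In a limma fit of UN and UH alone 0 were higher in UH (Cyp26b1 1.20, adjusted p = 0.0707), and with a filter at a mean of 1 TPM 0 were lower in SH than in UH, since Cyp2d22 was not tested. Leaving out 1 library gave 0 to 3 higher in UH against UN (0 without UN2 or UN3, 3 without UN1), 0 to 1 lower in SH against SN (0 without SN3 or SH2) and 0 to 1 lower in SH against UH (0 without UH2, UH3 or SH3). Without Cyp20a1, summed P450 TPM was 194 in UN, 100.4 in UH, 118 in SN and 192 in SH. The UN libraries (179 to 203) and the SH libraries (161 to 209) overlapped, as they did with Cyp20a1 (228 to 235 and 202 to 248). Without Cyp1b1, an alternative chosen after seeing the data, it was 124 in UN and 139.9 in SN, and moved by less than the replicate SD in UH (132) and SH (218). With 3 libraries per group and no depth, changes of genes under 1 TPM are poorly resolved.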
